A study of Mus musculus with 4 samples.

Results

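D-type cyclins, the kinases they activate and the inhibitors that hold those kinases back were followed across 4 mouse mammosphere libraries. The members are a list of gene symbols, and no measured value enters the rule: the cyclins Ccnd1, Ccnd2 and Ccnd3, the kinases Cdk4 and Cdk6, the CIP/KIP inhibitors Cdkn1b and Cdkn1c, and the INK4 inhibitors Cdkn2a, Cdkn2b and Cdkn2c. The list was chosen with earlier results of these data known, and its members are 10 of the 22609 genes in the count tables. All 10 passed the low-count filter, and each had at least 38 counts in every library.

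A D-type cyclin binds CDK4 or CDK6 when growth factors are present, and the active kinase phosphorylates the retinoblastoma protein, which releases E2F factors and lets a cell leave G1 for DNA synthesis. INK4 proteins bind CDK4 and CDK6 themselves and displace the cyclin, while CIP/KIP proteins bind cyclin-kinase complexes and mainly restrain CDK2. In the mammary gland cyclin D1 is needed for the lobular and alveolar growth of pregnancy, and its kinase partner CDK4 is required for tumours driven by some oncogenes.

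Each library is RNA from mammospheres, floating colonies that sorted basal mammary cells of Balb/C mice formed over 7 days without attachment. The control mice were gavaged with sesame oil for 3 weeks from 21 days of age. The BPA mice were given bisphenol A, an estrogenic plastics monomer, at 25 µg/kg/day over the same weeks. The DMBA mice had the oil and then, at 2 months, a single gavage of 7,12-dimethylbenz[a]anthracene, a carcinogen, at 30 mg/kg, and the BPA+DMBA mice had both agents. All mice were kept on a low-phytoestrogen diet after puberty, and their glands were taken at 4 months of age. Spheres of 5 animals were pooled into 1 library per group, so no group has replicates, and the culture medium held EGF, bFGF and insulin, mitogens that can raise D cyclins.

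Counts in genes totalled 15672532 to 30627055 per library. Basal markers were present in all 4 libraries, but so were luminal ones. The summed level of 6 basal and myoepithelial markers (Krt5, Krt14, Trp63, Acta2, Myh11, Cnn1) was 550 CPM (counts scaled to the library's TMM-adjusted total) in control, 588 with BPA, 1690 with DMBA and 1510 with both, and all 6 rose with DMBA. The sum of 7 luminal markers was 2400, 2680, 2010 and 2100 CPM, that of 6 fibroblast markers 8280, 6160, 4980 and 8400 CPM, and that of 6 endothelial and pericyte markers 321, 256, 321 and 428 CPM in the same order. Pdgfrb alone made up 298, 223, 251 and 366 CPM of the last sum, and collagen genes most of the fibroblast sum. Of the immune markers described, Ptprc, Cd3e and Emr1 had 5 counts or fewer in every library and Csf1r 15 to 45. In RNA pooled from mixed cells, fewer cells of a type and less RNA per cell cannot be told apart.

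Per kilobase of exon, Ccnd1 was the highest of the 10 genes in every library. It stood at 177 CPM per kb in control, 225 with BPA, 256 with DMBA and 255 with both, and its mean level lay above 99.0% of the 13510 kept genes with a known length. Cdk4, the main kinase partner, was next, at 72.3, 81.3, 92.7 and 96.9 CPM per kb, above 96.0% of genes. Cdkn2b (mean 31.9), Ccnd2 (29.0), Ccnd3 (25.4) and Cdkn1b (23.5) followed, where Cdkn2b overlapped with Ccnd2 over the 4 libraries and Ccnd3 with Cdkn1b, while the lowest Ccnd2 value just cleared the highest Ccnd3 value. Cdkn2a had a mean of 9.34 CPM per kb, and Cdkn2c (2.93), Cdk6 (1.85) and Cdkn1c (1.42) were lowest, each overlapping with the next. Exon lengths are those of a later annotation than the one counted, so the order of near neighbours is approximate.

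**Figure D1:**
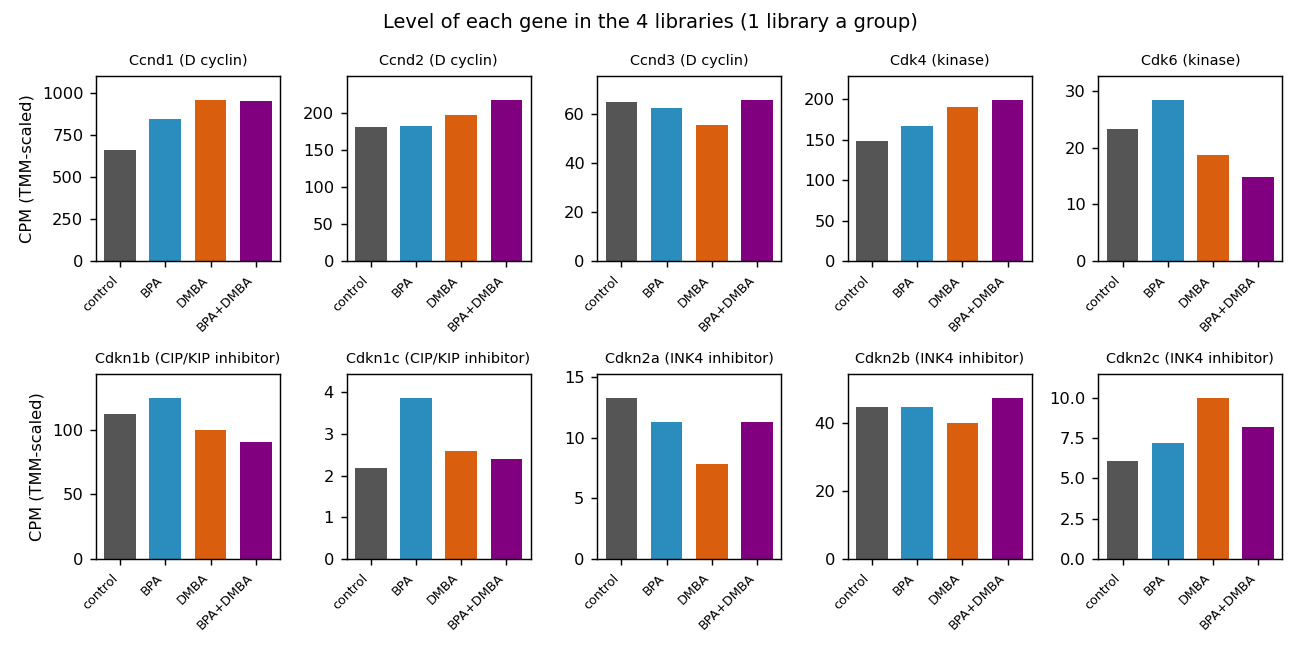
Level of each of the 10 genes (CPM, vertical axes from 0, a separate scale per gene) in the control, BPA, DMBA and BPA+DMBA libraries, 1 library per bar and no error. Ccnd1 ran from 663 in control to 957 in DMBA, and Cdk6 from 14.9 in BPA+DMBA to 28.4 in BPA.

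DMBA was read from all 4 libraries by an additive model of both exposures, in which the spread left over by the layout stands in for replicates, and from the pairs DMBA over control and BPA+DMBA over BPA. Of the 10 members, Cdk4 rose and none fell at an adjusted p of 0.05 in edgeR's quasi-likelihood test, against 14.4% of all 13638 genes tested (6.67% higher and 7.72% lower). At an unadjusted p under 0.05 there were 6 members, where 31.1% of all genes stood. No member differed 2-fold in either pair, while 6.55% of genes did in DMBA over control and 3.74% in BPA+DMBA over BPA. The median log2 change of the members was -0.06 and that of all genes -0.00. Besides the basal markers, 4 of 6 endothelial and pericyte markers were called higher with DMBA (Pecam1, Cdh5, Esam and Rgs5, by log2 changes of 1.53, 0.85, 2.60 and 2.13). So were 3 of 5 measured squamous markers (sum 49.7, 61, 307 and 243 CPM), Fabp4, the 1 measured adipocyte marker, and Dcn, 1 of 6 fibroblast markers. Called lower were 3 of 7 luminal markers, Kit (-0.93), Prlr (-0.92) and Elf5 (-0.42). The part of such differences in the members' values was not tested. Scaled by total counts alone, the genes called for DMBA were 889 higher and 431 lower, against 909 and 1053.

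Cdk4 and Cdk6 had opposite signs. Cdk4 had 148 CPM in control, 167 with BPA, 190 with DMBA and 199 with both. Both DMBA-exposed libraries lay above both others, and the rise was 1.24-fold (log2 0.31, SE 0.073, edgeR adjusted p = 0.0399). The ratio was 1.28 in DMBA over control (95% counting interval 1.23 to 1.34) and 1.19 in BPA+DMBA over BPA (1.14 to 1.25). That call is close to the threshold. It was not made with the scaling of DESeq2 inside edgeR (adjusted p = 0.0531), by DESeq2 itself (0.348), after thinning to the smallest total of counts in genes (0.0546) or once a trend of the log2 ratios with gene length was taken out (0.186, with the log2 change at 0.18), and over all 13 alternatives the adjusted p ran from 0.0301 to 0.348. With DMBA as the only term, it also missed the threshold when the control (0.202), DMBA (0.0523) or BPA+DMBA library (0.0567) was left out.

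Cdk6, the second kinase of the D cyclins, had 23.3 CPM in control, 28.4 with BPA, 18.7 with DMBA and 14.9 with both. Both DMBA-exposed libraries lay below both others. Its log2 value was -0.60 (SE 0.159, edgeR adjusted p = 0.0519), just outside the threshold, and 6 of 13 alternatives did call it (adjusted p from 0.00797 to 0.202). In BPA+DMBA over BPA it was at 0.527 of the BPA level (interval 0.45 to 0.614), and in DMBA over control at 0.803 (0.715 to 0.9). Only Cdk6 and Cdkn1c were at least 1.5-fold apart in BPA+DMBA over BPA, 2 of 10 members against 10.4% of all genes.

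Counts of the pair can also be set against each other inside a library, where no scaling between libraries enters. The ratio of Cdk4 to Cdk6 counts was 6.37 in control (95% counting interval 5.88 to 6.91), 5.88 with BPA (5.37 to 6.45), 10.2 with DMBA (9.3 to 11.2) and 13.3 with both (11.7 to 15.3). The intervals of the DMBA-exposed libraries did not meet those of the other libraries. Gene length moves with this ratio: Cdk4 has 2053 exonic bases and Cdk6 11525, longer than 98.2% of kept genes. The 500 genes nearest to Cdk6 in length had a median log2 ratio of -0.24 in DMBA over control and -0.27 in BPA+DMBA over BPA, and those nearest to Cdk4 0.07 and 0.10. With the length trend removed Cdk6 stood at -0.38 and Cdk4 at 0.18 on the log2 scale.

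**Figure D2:**
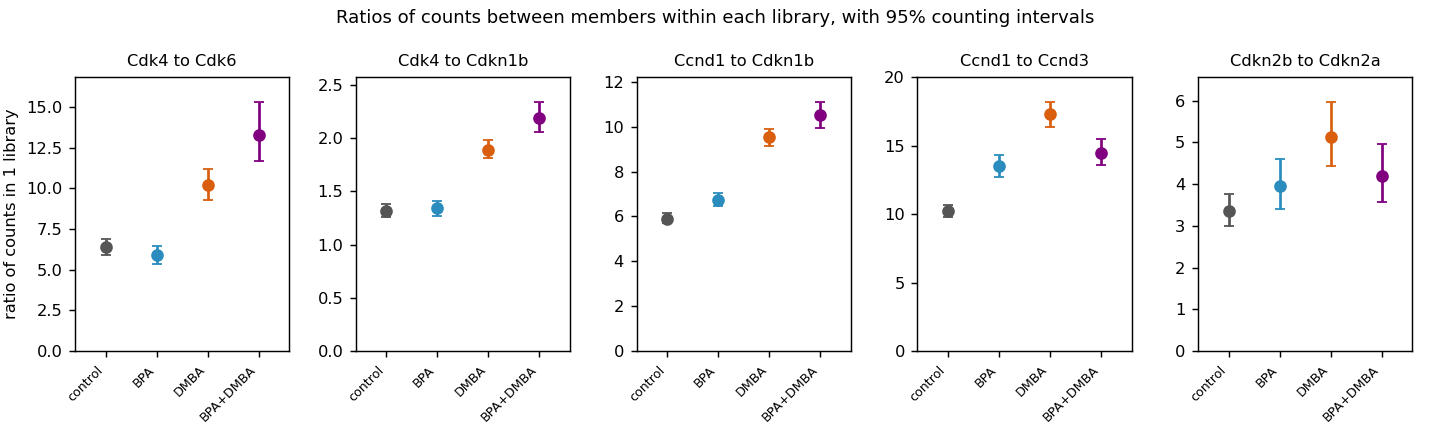
Ratio of the counts of 2 members within each library (vertical axes from 0), with 95% Clopper-Pearson counting intervals as bars. Cdk4 to Cdk6 and Cdk4 to Cdkn1b separate the DMBA-exposed libraries (10.2 and 13.3, 1.89 and 2.19) from control and BPA (6.37 and 5.88, 1.32 and 1.34).

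Promoter sequence of the kinases is shown because Cdk4 is a known target of MYC, which binds the E-box CACGTG. The windows are the 250 bases before the RefSeq start, in build GRCm38.p6 and from the C57BL/6J reference, not from these Balb/C mice: chr10:127063285-127063534 (plus strand) for Cdk4 and chr5:3343643-3343892 (plus strand) for Cdk6. Capitals mark CACGTG and the xenobiotic response core GCGTG, read on both strands, the latter bound by the aryl hydrocarbon receptor, to which DMBA binds.
Cdk4: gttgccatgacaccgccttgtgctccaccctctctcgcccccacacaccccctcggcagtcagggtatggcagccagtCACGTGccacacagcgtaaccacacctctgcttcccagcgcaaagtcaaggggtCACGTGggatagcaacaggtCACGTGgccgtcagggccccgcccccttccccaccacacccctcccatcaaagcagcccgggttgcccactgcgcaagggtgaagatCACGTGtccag
Cdk6: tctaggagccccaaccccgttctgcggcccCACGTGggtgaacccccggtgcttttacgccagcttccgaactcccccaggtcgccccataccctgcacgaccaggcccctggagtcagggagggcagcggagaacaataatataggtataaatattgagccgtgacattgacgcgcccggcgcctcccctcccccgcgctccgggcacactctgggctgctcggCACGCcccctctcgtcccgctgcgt
Cdk4 holds 4 E-boxes and no xenobiotic response core in this window, and Cdk6 holds 1 of each, with no overlap between the motifs. Among 32841 RefSeq promoter windows of the same length 6.02% held at least 1 E-box and 0.0213% (7 windows) at least 4, while 28.2% held the core. Neither window held an E2F site (TTTGGCGC, TTTCCCGC, TTTCGCGC or TTTGCCGC on either strand, found in 1.86% of windows). Myc itself had 49.8 CPM in control, 64.1 with BPA, 59.5 with DMBA and 68.3 with both, with a DMBA log2 value of 0.17 (SE 0.0816, edgeR adjusted p = 0.202). Such matches describe letters, and binding was not measured.

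Among the D cyclins, Ccnd1 (cyclin D1) was the most abundant and varied most. It had 663 CPM in control, 842 with BPA, 957 with DMBA and 953 with both. Control was the low library, and the DMBA-exposed libraries lay above both others. The ratio was 1.44 in DMBA over control (interval 1.42 to 1.47) but 1.13 in BPA+DMBA over BPA (1.11 to 1.16), and the additive log2 value of 0.35 did not pass (SE 0.119, edgeR adjusted p = 0.0982). Without the BPA library, and with DMBA as the only term, its log2 value was 0.53 and it did pass (adjusted p = 0.0354), while over all 13 alternatives the adjusted p ran to 0.429.

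Ccnd2 (cyclin D2) had 181, 182, 197 and 217 CPM in the control, BPA, DMBA and combined libraries. Again both DMBA-exposed libraries were above the others, by 1.09-fold and 1.19-fold in the pairs (log2 0.19, SE 0.0758, edgeR adjusted p = 0.15). Ccnd3 (cyclin D3), with 64.8, 62.5, 55.5 and 65.7 CPM, did not follow: it was lowest in DMBA and highest in BPA+DMBA, and the groups overlapped (log2 -0.08, adjusted p = 0.608). Per kilobase, Ccnd1 made up 76.8% of D-cyclin signal in control, 81.0% with BPA, 83.1% with DMBA and 81.1% with both. The share of Ccnd3 was 11.5%, 9.20%, 7.36% and 8.55% in the same order, and the summed D-cyclin level was 231, 278, 308 and 314 CPM per kb. The ratio of Ccnd1 to Ccnd3 counts rested on no scaling and was 10.2 in control, 13.5 with BPA, 17.3 with DMBA and 14.5 with both.

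Proliferation markers were higher in the same libraries as Ccnd1. The summed level of 6 proliferation markers (Mki67, Top2a, Pcna, Mcm2, Ccnb1, Plk1) was 350, 385, 532 and 510 CPM in the control, BPA, DMBA and combined libraries. The sum was lowest in control, then BPA, and highest in both DMBA-exposed libraries, as for Ccnd1. Of the 6, Pcna (31.8 in control, 29.9 with BPA) and Ccnb1 (7.08 and 6.95) were lower in BPA than in control, and the rest higher. The summed basal markers had the same order (550, 588, 1690 and 1510 CPM). All 6 proliferation markers rose with DMBA in edgeR, where 6.67% of all genes did. DESeq2 called 2 of these 6 markers, and the fit without the length trend called 5. Ccnd3 was lowest in DMBA, as was the summed fibroblast level, although the fibroblast marker Dcn was not (136, 128, 175 and 217 CPM). Their part in either result was not tested.

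Inhibitors of the CIP/KIP family differed in level and pattern. Cdkn1b, which encodes p27, an inhibitor raised in resting cells, had 112 CPM in control, 125 with BPA, 100 with DMBA and 90.7 with both. Both DMBA-exposed libraries were below both others, with a log2 value of -0.31 (SE 0.09, edgeR adjusted p = 0.0705) that 3 of 13 alternatives called (adjusted p from 0.0314 to 0.427). The pair ratios were 0.896 (interval 0.851 to 0.942) in DMBA over control and 0.727 (0.681 to 0.777) in BPA+DMBA over BPA. Cdk4 counts were 1.32 times those of Cdkn1b in control and 1.34 times in BPA, against 1.89 in DMBA (interval 1.81 to 1.98) and 2.19 in BPA+DMBA (2.06 to 2.34). For Ccnd1 the corresponding ratios were 5.9, 6.75, 9.52 and 10.5.

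Cdkn1c, which encodes p57 and is imprinted, with expression from the maternal copy, was near the bottom of the measured range. It had 65, 74, 72 and 38 counts, or 2.19, 3.87, 2.58 and 2.39 CPM, in the control, BPA, DMBA and combined libraries. BPA was the high library and the others were close together. Its DMBA value was uncertain (log2 -0.20, SE 0.306, edgeR adjusted p = 0.698), and the pairs went opposite ways, at 1.17 (interval 0.831 to 1.67) and 0.627 (0.407 to 0.927). Kcnq1ot1, the noncoding RNA of the same imprinted domain, fell with DMBA in edgeR (8.29, 8.31, 5.45 and 4.34 CPM, with log2 -0.75, SE 0.185, adjusted p = 0.043). Most alternatives on all 4 libraries did not call it. These were the scaling of DESeq2 inside edgeR, total counts alone, a filter of 20 counts in every library, DESeq2 itself, thinning and removal of the length trend. Reads were assigned without a stated strand, and Cdkn1c shares 589 exonic bases with an antisense gene, so its few counts carry that further doubt.

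INK4 inhibitors showed no common direction. Cdkn2a had 396, 217, 217 and 180 counts, or 13.3 CPM in control, 11.3 with BPA, 7.79 with DMBA and 11.3 with both. DMBA was the low library, at 0.586 of control (interval 0.492 to 0.69), whereas BPA+DMBA stood at 0.999 of BPA (0.816 to 1.22), and the additive log2 value of -0.41 did not pass (SE 0.206, edgeR adjusted p = 0.232). Without the BPA+DMBA library, and with DMBA as the only term, it was at -0.67 and passed (adjusted p = 0.024, against a highest value of 0.706 over the alternatives). The summed fibroblast markers were also lowest in the DMBA library, at 4980 CPM against 6160 to 8400, but Dcn was higher there (175 CPM) than in control (136) or BPA (128). Their part in this was not tested.

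Cdkn2a counts mix 2 products. The locus has 2 start sites that feed a shared second exon: the distal start gives p19ARF, which acts on p53 through MDM2, and the proximal start gives p16INK4a, the inhibitor of CDK4 and CDK6. In the annotation used for lengths the proximal transcript (Cdkn2a-201) has 852 bases and the distal one (Cdkn2a-202) 895, and 575 bases are common to both. The counts per symbol do not separate them, so a difference in Cdkn2a is not a difference in the INK4 product alone. The 2 RefSeq windows of 250 bases are shown to set the start sites apart, both on the minus strand of GRCm38.p6, the distal at chr4:89294620-89294869 and the proximal at chr4:89282193-89282442. Both windows come from the C57BL/6J reference, not from these Balb/C mice. Capitals mark the E2F site TTTCCCGC and the core GCGTG, read on both strands, which do not overlap.
Cdkn2a distal start: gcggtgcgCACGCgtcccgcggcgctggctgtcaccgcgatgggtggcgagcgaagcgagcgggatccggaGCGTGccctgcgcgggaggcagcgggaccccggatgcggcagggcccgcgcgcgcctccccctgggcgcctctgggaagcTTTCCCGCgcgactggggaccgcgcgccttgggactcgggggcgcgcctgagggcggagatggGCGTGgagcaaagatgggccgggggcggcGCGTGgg
Cdkn2a proximal start: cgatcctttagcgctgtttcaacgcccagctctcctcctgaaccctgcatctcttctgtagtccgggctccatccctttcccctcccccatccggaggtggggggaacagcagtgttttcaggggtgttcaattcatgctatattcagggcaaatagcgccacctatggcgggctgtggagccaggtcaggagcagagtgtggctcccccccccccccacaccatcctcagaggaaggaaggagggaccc
The distal window has 40 CG dinucleotides, at or above 98.9% of all windows, with 1 E2F site and 4 xenobiotic response cores. The proximal window has 7 CG dinucleotides, close to the median of 6, and no match to any of these motifs. RefSeq windows were given for 7 of the 10 members, with none for Ccnd1, Ccnd2 or Cdkn1c.

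Cdkn2b, the neighbour of Cdkn2a and a gene induced by TGF-beta, was the leading INK4 transcript, with 70.3% to 73.5% of the family's signal per kilobase. It had 44.9 CPM in control, 44.8 with BPA, 40.0 with DMBA and 47.6 with both, a span of 1.19-fold with overlapping groups (log2 -0.04, SE 0.0953, edgeR adjusted p = 0.799). Mtap, on the other side of the locus, had 76.4, 85.1, 82.1 and 82.7 CPM. The ratio of Cdkn2b to Cdkn2a counts was 3.36 in control (interval 3.0 to 3.77) and 5.14 in DMBA (4.44 to 5.97), with BPA at 3.95 and BPA+DMBA at 4.2.

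Cdkn2c, which encodes p18, had 181, 137, 280 and 130 counts, or 6.1, 7.16, 10.0 and 8.18 CPM. Both DMBA-exposed libraries were above both others, farther in DMBA alone, at 1.64 times control (interval 1.36 to 2.0) against 1.14 for BPA+DMBA over BPA (0.892 to 1.46). The additive log2 value of 0.48 did not pass (SE 0.191, edgeR adjusted p = 0.148), and it passed without the BPA+DMBA library only (log2 0.62, adjusted p = 0.038, highest value over the alternatives 0.654). Cdkn2a and Cdkn2c were the members at least 1.5-fold apart in DMBA over control, 2 of 10 against 15.1% of all genes, and they lay on opposite sides. Cdkn2d, the remaining INK4 gene, had 12 counts or fewer in every library.

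Counted together, 7 of 10 members had both DMBA-exposed libraries on the same side of both others, where 63.3% of all genes did. Ccnd1, Ccnd2, Cdk4 and Cdkn2c lay above (4 of 10, against 31.7% of genes) and Cdk6, Cdkn1b and Cdkn2a below (3 of 10, against 31.6%). For 2 of these 7 the separation was within counting error, Cdkn2a with 11.3 CPM in both libraries that received BPA, and Cdkn2c with 8.18 CPM in BPA+DMBA against 7.16 in BPA.

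**Figure D3:**
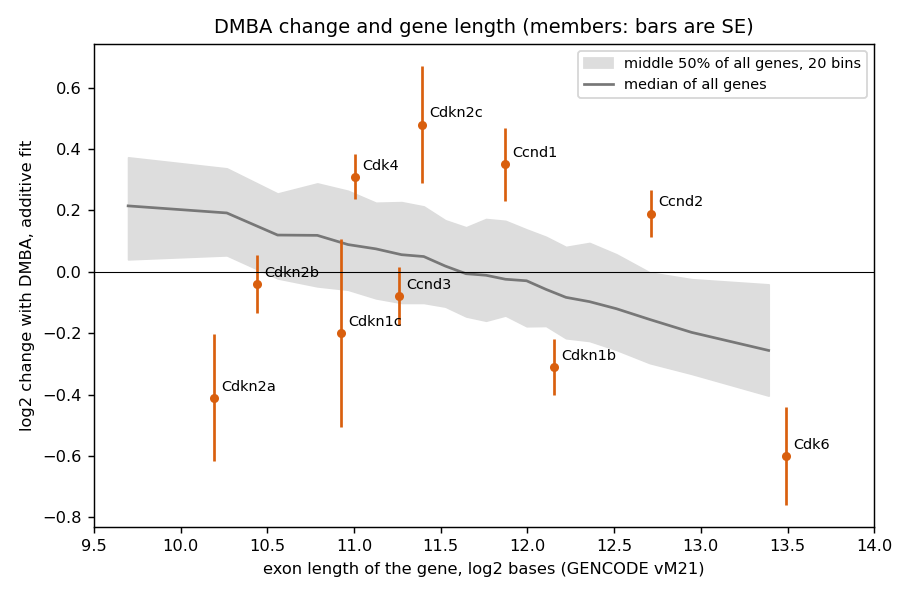
Log2 change with DMBA in the additive fit against exon length (log2 bases) for the 10 members (points, bars are the SE), with the median (line) and middle 50% (shading) of all genes in 20 length bins. The median of all genes declines with length. Ccnd1, Ccnd2, Cdk4 and Cdkn2c lie above the shading, Cdk6 (just past its right end), Cdkn1b, Cdkn1c, Cdkn2a and Cdkn2b below it, and Ccnd3 within it.

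Length bears on the whole DMBA comparison. Across 13510 genes the Spearman correlation of the log2 ratio with exon length was -0.303 in DMBA over control and -0.350 in BPA+DMBA over BPA, against 0.0886 and 0.013 in the BPA pairs. These points are genes of the same libraries and not replicates. With the trend removed no member passed, and the log2 values were 0.33 for Ccnd1, 0.30 for Ccnd2, -0.18 for Ccnd3, -0.29 for Cdkn1b, -0.63 for Cdkn2a, -0.33 for Cdkn1c, -0.24 for Cdkn2b and 0.40 for Cdkn2c. All 10 members kept the sign of their additive DMBA value.

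BPA was read the same way, over all 4 libraries and in the pairs BPA over control and BPA+DMBA over DMBA. edgeR called none of the 10 members and none of the 13638 genes (0%), and at an unadjusted p under 0.05 there were 0 members and 304 genes (2.23%). DESeq2 called 0 members and 1 gene. No member had both BPA-exposed libraries on the same side of both others, where 17.1% of all genes did. No member differed 2-fold in either pair, against 0.829% of genes in BPA over control and 1.09% in BPA+DMBA over DMBA.

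Without DMBA, several members were higher in the BPA library, by small amounts. Ccnd1 was 1.27-fold higher than in control (interval 1.24 to 1.3), Cdk6 1.22-fold (1.09 to 1.36), Cdk4 1.12-fold (1.07 to 1.18) and Cdkn1b 1.11-fold (1.05 to 1.17). Cdkn1c was 1.74-fold higher (1.25 to 2.5) on 65 and 74 counts, the only member past 1.5-fold, against 2.82% of all genes. Intervals lay above equality for 5 of 10 members and below it for 0, where 16.4% and 12.8% of genes did. Interval width shrinks with counts, and most members are well counted, so these shares are not on equal terms. The ratio was 1.00 for Ccnd2 (0.96 to 1.05) and 0.997 for Cdkn2b (0.914 to 1.09).

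On the DMBA background the pattern was another. Ccnd1 in BPA+DMBA stood at 0.996 of its DMBA level (interval 0.976 to 1.02). Cdkn2a was 1.45-fold higher in BPA+DMBA (1.19 to 1.78), Cdkn2b 1.19-fold (1.08 to 1.31) and Ccnd3 1.18-fold (1.09 to 1.28), while Cdk6 stood at 0.799 of DMBA (0.682 to 0.932) and Cdkn1b at 0.903 (0.847 to 0.962). No member passed 1.5-fold, against 4.11% of all genes. Cdk6 and Cdkn1b were thus on opposite sides in the BPA pairs with both intervals clear of equality, 2 of 10 members against 8.49% of all genes. These shares too depend on how well genes are counted. Ccnd2 was 1.1-fold higher and Cdk4 1.05-fold higher, each with an interval above equality, for Cdk4 only just. Cdk4 was thus on the higher side in both BPA pairs. Cdkn2a, Cdkn2b and Ccnd3 were lowest in the DMBA library, in which the fibroblast marker sum was also lowest (4980 CPM, against 8400 with both agents), though Dcn, at 175 CPM, was not. Its part was not tested.

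**Figure D4:**
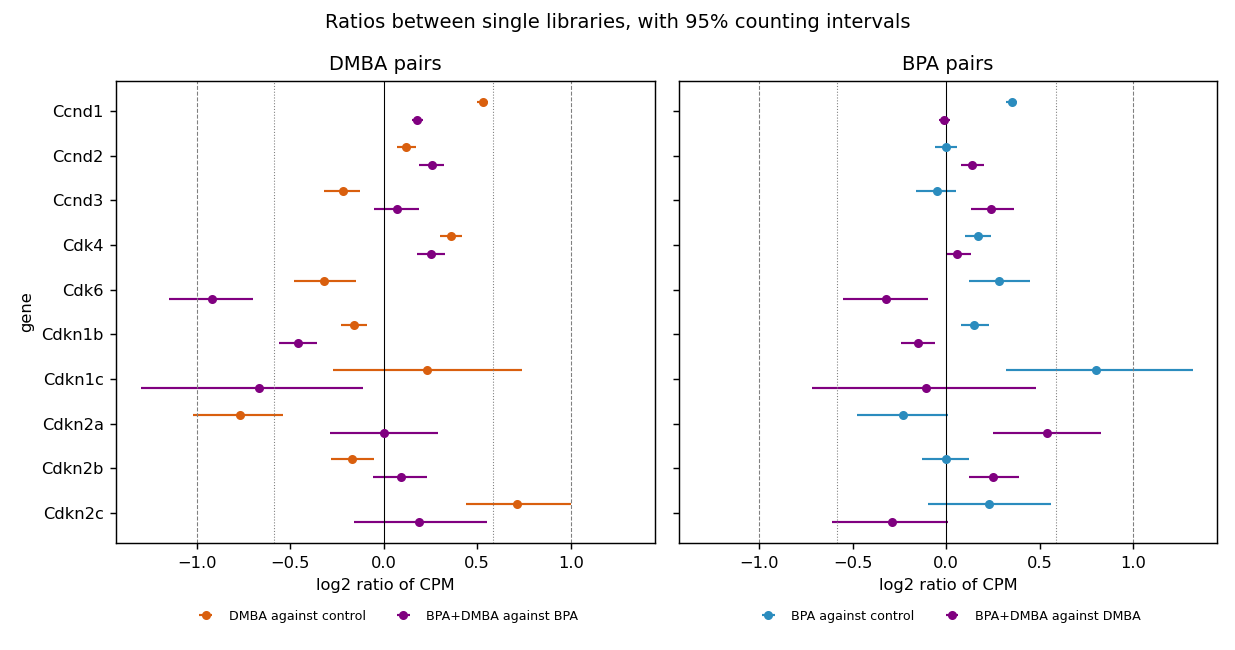
Log2 ratio of CPM for the 10 members in the DMBA pairs (left) and the BPA pairs (right), with 95% counting intervals as bars, which hold no variation between animals or cultures. Dotted lines mark 1.5-fold and dashed lines 2-fold. Every point lies inside the dashed lines, and Cdk6 (-0.92) in BPA+DMBA over BPA is the farthest out.

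Departure from additivity is the BPA log2 ratio with DMBA minus that without it. No member departed by 2-fold, against 2.86% of all genes. At 1.5-fold there were 3 of 10 against 7.91%: Cdkn2a at 0.77 (counting interval 0.40 to 1.14), Cdkn1c at -0.90 (-1.64 to -0.16) and Cdk6 at -0.61 (-0.88 to -0.33). Ccnd1 departed by -0.35 (-0.39 to -0.31) with control the low library. The counting interval excluded 0 for 10 of 10 members, against 32.5% of all genes. Interval width shrinks with counts, and most members are well counted, so these shares are not on equal terms. With both agents against control no member differed 2-fold, against 4.38% of all genes, and Cdk6 was the only one past 1.5-fold, at 0.642 (interval 0.55 to 0.743), against 11.7%. Ccnd1 was 1.44-fold (1.41 to 1.47) and Cdk4 1.34-fold higher (1.28 to 1.4).

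Other genes of G1 control were counted by list, where the share of all genes called for DMBA was 14.4% (6.67% higher, 7.72% lower). Among 9 measured partners of the members, 3 rose with DMBA in edgeR and 0 fell: Ccna2, the cyclin of S phase (log2 0.84, SE 0.106, adjusted p = 0.00788), Ccne1, which activates CDK2 (0.75, adjusted p = 0.0133), and Cdkn1a, the CIP/KIP inhibitor p21 (0.61, adjusted p = 0.0138). Cdk2 itself had a log2 value of 0.18 (adjusted p = 0.217). Of 13 retinoblastoma and E2F genes 2 rose, E2f8 (0.80) and E2f2 (0.79), and 2 fell, Rb1 (-0.96) and Tfdp2 (-0.33). Of these 13 genes DESeq2 called 2, as did the fit without the control library. The median log2 change was 0.18 in each of these lists and -0.00 over all genes.

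Among 12 genes that control the turnover of D cyclins and p27, 1 rose and 2 fell, 3 of 12 against 14.4% of all genes. Cks1b, a cofactor in the degradation of p27, rose by a log2 change of 0.54 (SE 0.113, edgeR adjusted p = 0.0285). Fbxw7, a ubiquitin ligase subunit that targets cyclin E (-0.36, adjusted p = 0.0316), and Gsk3b, a kinase that marks cyclin D1 for export and degradation (-0.38, adjusted p = 0.0239), were the 2 that fell. Skp2, the ligase subunit that recognises p27, had 8.56, 7.37, 11.6 and 13.2 CPM in the control, BPA, DMBA and combined libraries and did not pass (0.62, adjusted p = 0.0523). DESeq2 called 0 of these 12 genes, as did the fit without the length trend, and leaving out the control or the BPA library left 1.

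Of 17 regulators upstream of the members 0 rose and 3 fell: Ets2, a transcription factor downstream of Ras (log2 -0.58, SE 0.0812, edgeR adjusted p = 0.0105), Cbx7, a Polycomb protein that represses the Cdkn2a locus (-0.54, adjusted p = 0.0415), and Gata3, a luminal transcription factor (-0.34, adjusted p = 0.0318). Bmi1, another Polycomb repressor of Cdkn2a, had a value of -0.25 (adjusted p = 0.0915). The 3 of 17 called stand against 14.4% of all genes, and the alternatives called from 1 (DESeq2, total counts) to 6 (no low-count filter, likelihood ratio test, without the BPA+DMBA library). BPA called 0 genes in any of these lists. Some members share exons with genes on the other strand. Where strand is not counted, reads on such bases can be left out as overlapping or assigned to the wrong gene. Tspan31, which shares 641 of the 2053 exonic bases of Cdk4, had 118, 121, 112 and 120 CPM, and Oraov1 (LTO1 in the annotation), which shares 818 of the 3740 of Ccnd1, had 18.1, 18.9, 19.7 and 18.8 CPM. Bysl, which shares 361 of the 2447 of Ccnd3, had 26.6, 28.7, 31.7 and 36.3 CPM.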

How the data were processed

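Raw read counts per gene symbol were deposited for 22609 genes in each of 4 libraries, and the summary entries at the end of each table entered neither totals nor tests. Per the submitters' processing notes CASAVA 1.8.2, HTSeq, DESeq and build mm9 were used. Which aligner was used, and whether strand was counted, is not given in the sources used here. From the counts the authors deposited, genes reaching 20 counts in any library (13638) were scaled by TMM in edgeR 4.0.16 (R 4.3.3). The additive model of BPA and DMBA was fitted by edgeR's quasi-likelihood test over all kept genes, with Benjamini-Hochberg adjustment and a threshold of 0.05. The SE printed with an additive log2 value is its absolute size divided by the square root of that test's F statistic. The additive model was not fitted with replicates. It has 1 residual degree of freedom, the interaction. Each gene's spread was moderated toward a trend over all kept genes. The p-values thus rest on interaction spread pooled across genes, and not on replicate animals. Single pairs were compared by log2 ratios of CPM (prior count 2) with exact 95% Clopper-Pearson intervals of the count ratio, which cover counting error only. For departure the interval was a normal approximation from the 4 counts.

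Reads outside genes made up 11.3% to 13.5% of entries, reads aligned to several places 22.9% to 25.6%, and reads on overlapping genes 0.435% to 0.449%. A count of 0 allows up to 3 counts, or 0.098 to 0.191 CPM. Exon lengths came from GENCODE vM21 (99.1% of kept genes matched by symbol), and promoters from RefSeq in GRCm38.p6. The script of the additive test was tested on simulated data, which checks the code and not the use of the interaction in place of replicates. The members and gene lists were chosen with earlier results of these data known. All members were described. From each list of other genes those that passed for DMBA were named, others being chosen after their values were seen. Alternatives were other scalings, filters, tools (DESeq2 1.42.0), single-term fits with and without each library, thinning and removal of the length trend by loess. One marker gene is not reported here.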

Additional observations from a re-analysis of the deposited data

Results flagged for a closer look

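Cdk6 and Cdkn1b had BPA ratios on opposite sides with and without DMBA, each with a counting interval that excluded equality. For Cdk6 the log2 ratio was 0.28 in BPA over control and -0.32 in BPA+DMBA over DMBA. For Cdkn1b it was 0.15 and -0.15. Such opposite pairs were seen for 8.49% of all 13638 genes, against 2 of 10 members, shares that depend on how well genes are counted. The difference was not tested against replicates, since each group is 1 library.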

How the results depend on the processing

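The number of members called for DMBA was 1. It was 0 with DESeq2's scaling (RLE) in edgeR, with DESeq2, with thinned libraries and with the length trend removed, 2 with edgeR's likelihood ratio test (Cdk4, Cdk6), and 3 without a low-count filter or with DMBA as the only term (Cdk4, Cdk6, Cdkn1b). Leaving out each library, with DMBA as the only term, gave 1 to 3: Cdk6 without control, Ccnd1 and Cdk4 without BPA, Cdk6 and Cdkn1b without DMBA, and Cdk6, Cdkn2a and Cdkn2c without BPA+DMBA. In those fits the lone library of an arm is assumed to vary like the others. No alternative tried called a member for BPA. At 1.5-fold the counts of members were 2 in DMBA over control, 2 in BPA+DMBA over BPA, 1 in BPA over control, 1 in BPA+DMBA over control and 3 for departure, where 2-fold gave 0 in each. Over all genes, DMBA calls were 1962, and 675 with DESeq2, 1041 with the length trend removed and 1049 without the control library. Total counts alone gave 889 higher and 431 lower, against 909 and 1053, and shifted the median of all genes in DMBA over control to 0.10. Under the scalings, thinning, another prior count or the length trend removed, no member changed sign in that pair. Sign changes were seen for Cdkn2a, Ccnd3 and Cdkn2b in BPA+DMBA over BPA, for Ccnd2, Ccnd3 and Cdkn2b in BPA over control, for Ccnd1 and Cdkn1c in BPA+DMBA over DMBA, and for Ccnd3, Cdkn1c and Cdkn2b in BPA+DMBA over control, each with a main interval that held equality. No paired analysis was possible because each group has 1 library. Depth limits Cdkn1c most, with 38 to 74 counts.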
